A study of Homo sapiens with 4 samples.

Results

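The regions described here are the peaks at the genes of 7 metabolic and xenobiotic nuclear receptors (PPARA, PPARG, RXRA, NR1I2, RORA, NR3C1 and THRB), of AHR, a ligand-activated transcription factor of another family, and of PPARGC1A, the coactivator PGC-1alpha. A peak belonged to a locus when it overlapped the gene span or 20 kb on either side on hg19, and 155 of the 160601 distinct peaks of the list did so. Each peak is a place where sequencing reads from an H3K4me1 immunoprecipitation were called higher in 1 library of HepG2 cells treated with an siRNA against LSD2 (the histone demethylase KDM1B) than in 1 library of HepG2 cells treated with a control siRNA. HepG2 is a human liver tumour line. It was grown in high-glucose medium with serum in both conditions, and an input library of each condition, 4 samples in all, is not named in the peak call.

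The groups have 1 library each. No test between conditions was possible, and the intervals below cover the counting error of peaks alone. The file gives the position of each peak and no height, fold or p-value, and the read depth of the libraries is unknown. The file's header gives the libraries different sequencing run names, so a difference between runs cannot be told apart from the knockdown. A place without a peak may carry H3K4me1 at the same or a lower level after knockdown, since the list holds increases only. The identity of the cells cannot be checked against marker transcripts in these files, and the extent of the LSD2 knockdown is not measured in them.

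Nuclear receptors are transcription factors that bind small lipophilic ligands and DNA. Most of those here pair with RXRA, while the glucocorticoid receptor NR3C1 binds DNA mainly as a homodimer and RORA often as a monomer. In liver they set the rates of fatty acid oxidation, lipid storage, drug clearance and gluconeogenesis. H3K4me1 is the histone mark typical of enhancers and of the flanks of promoters, and LSD2 removes methyl groups from H3K4.

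The stretches just before 4 of the gene starts show how different these promoters are in base composition, and they were chosen because AHR and PPARG had peaks at the 5′ end of the gene and RXRA and NR1I2 did not. They are the 250 bases before the start, from RefSeq on GRCh38.p14, with each CpG dinucleotide in capitals. They were matched to the genes by name and by gene length, and were not set against the hg19 positions of peaks. AHR lies on the plus strand of chromosome 7 (17298402 to 17298651), PPARG on the plus strand of chromosome 3 (12287118 to 12287367), RXRA on the plus strand of chromosome 9 (134326205 to 134326454) and NR1I2 on the plus strand of chromosome 3 (119781851 to 119782100).
AHR: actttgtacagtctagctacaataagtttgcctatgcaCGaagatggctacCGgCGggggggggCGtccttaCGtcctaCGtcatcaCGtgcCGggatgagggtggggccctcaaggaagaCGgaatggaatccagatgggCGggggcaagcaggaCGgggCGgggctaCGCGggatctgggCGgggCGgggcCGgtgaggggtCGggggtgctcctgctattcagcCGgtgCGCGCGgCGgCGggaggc
PPARG: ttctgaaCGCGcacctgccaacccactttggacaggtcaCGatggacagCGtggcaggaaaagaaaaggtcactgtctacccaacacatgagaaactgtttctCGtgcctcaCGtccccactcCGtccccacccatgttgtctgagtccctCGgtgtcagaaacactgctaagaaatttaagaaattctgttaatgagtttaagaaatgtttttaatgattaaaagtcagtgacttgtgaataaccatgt
RXRA: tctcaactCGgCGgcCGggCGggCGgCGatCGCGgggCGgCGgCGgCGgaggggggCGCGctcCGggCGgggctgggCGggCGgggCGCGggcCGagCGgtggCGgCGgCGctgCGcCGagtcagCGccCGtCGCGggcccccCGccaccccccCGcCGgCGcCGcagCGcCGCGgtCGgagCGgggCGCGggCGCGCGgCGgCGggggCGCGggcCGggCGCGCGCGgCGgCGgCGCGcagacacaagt
NR1I2: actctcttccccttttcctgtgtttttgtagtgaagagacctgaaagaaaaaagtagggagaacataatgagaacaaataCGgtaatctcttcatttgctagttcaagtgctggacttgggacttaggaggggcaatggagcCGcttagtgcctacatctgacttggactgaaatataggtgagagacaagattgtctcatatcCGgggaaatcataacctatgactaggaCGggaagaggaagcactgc

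RXRA had 59 CpG in this stretch, AHR 24, PPARG 8 and NR1I2 4, against a median of 11 (quartiles 3 and 23) over 35116 RefSeq promoter windows. A start that matched the length of the gene span was at hand for 7 of the 9 genes. The other 3 were PPARA with 41 CpG, THRB with 21 and NR3C1, at its outermost start, with none. For 5 of the 7 more than 1 start matched, and the closest in length was used. Gene by gene, and without placing the stretches on hg19, the genes with a peak within 5 kb of the 5′ end of their span (AHR, THRB, PPARG, NR3C1) had from 0 to 24 CpG and those without (RXRA, PPARA, NR1I2) from 4 to 59. The CpG counts of these groups overlapped. The hexamer AGGTCA, the core that many nuclear receptors bind, was searched on both strands and occurred in 1 of the 7 stretches, that of PPARG, where it occurred 2 times on the printed strand. Of all windows 12.1% held it. GCGTG, the core recognised by AHR with its partner ARNT, was found on either strand in 3 of the 7 (PPARA, PPARG and THRB), against 32.2% of all windows. These matches describe letters in a short window and not binding.

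Together the 9 loci covered 2.18 Mb and held 71.1 peaks per Mb (95% exact Poisson interval 60.4 to 83.3). Autosomes ranged from 42.8 to 76.4 peaks per Mb around a median of 54.0. RORA and THRB, the longest genes, supplied 80 of the 155 peaks (51.6%). Cut into windows of 10 kb, the loci had a peak in 105 of 212 windows, 49.5% (95% Wilson interval 42.9 to 56.2%), against 41.3% of all 10 kb windows of the genome. The share in the loci was 1.20 times that of the genome, and by locus it ran from 3 of 15 windows in RXRA to 12 of 19 in NR3C1.

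**Figure D1:**
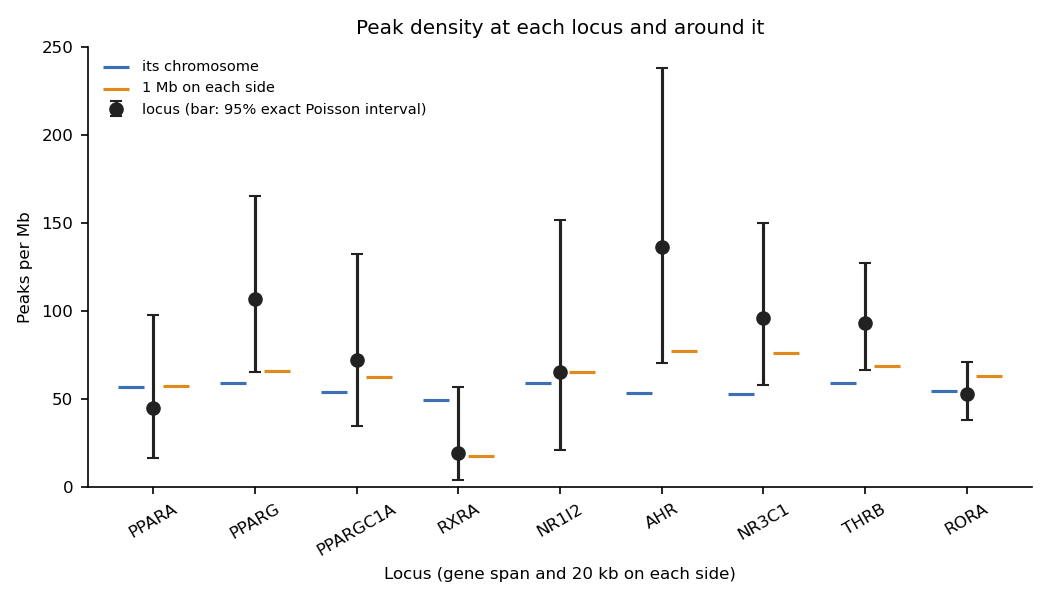
Peaks per Mb (vertical axis) at each locus, with 95% exact Poisson intervals as bars, beside the density of its chromosome (left dash) and of the 1 Mb on each side (right dash). AHR stood highest at 136 peaks per Mb and RXRA lowest at 19.4, and the surroundings of RXRA were as sparse as RXRA itself.

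Peak density differed 7.05-fold between the highest and the lowest locus, AHR and RXRA. This fold was 10.8 without flanks and 4.11 when peaks below the list's median width were left out. Relative to the 1 Mb on each side AHR was at 1.77 and RXRA at 1.11. AHR came first with 136 peaks per Mb (95% interval 70.5 to 238), then PPARG with 107 (65.3 to 165), NR3C1 with 96.0 (57.8 to 150) and THRB with 93.1 (66.2 to 127). PPARGC1A had 71.9 (34.5 to 132), NR1I2 64.9 (21.1 to 152) and RORA 52.4 (37.6 to 71.1). PPARA had 44.8 (16.4 to 97.5) and RXRA 19.4 (3.99 to 56.6). Every pair of neighbours in this order had overlapping intervals. The interval of RXRA lay below those of AHR, PPARG, NR3C1 and THRB. In those same 4 loci the interval also lay above the density of the locus's own chromosome, and in no locus did it lie below. Against the 1 Mb on each side this no longer held: there the density was 77.0 around AHR, 65.5 around PPARG, 76.0 around NR3C1 and 68.5 around THRB, each inside the interval of the locus. All these intervals treat peaks as independent, so they can understate how much density varies from place to place. Among autosomal windows of equal length, 2.46% held more peaks than AHR, 5.36% than PPARG, 9.29% than NR3C1 and 7.83% than THRB. PPARG, NR3C1 and THRB thus lay inside the 5th to 95th percentiles of such windows.

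The fatty acid sensors PPARA and PPARG held 6 and 20 peaks, with overlapping intervals of density. PPARA encodes the receptor that drives fatty acid oxidation in liver, and PPARG the regulator of fat cell formation and lipid storage, which is normally low in hepatocytes. The PPARA locus (chromosome 22, gene span 46546000 to 46640000, plus strand) held 6 peaks, which was 0.791 of the density of chromosome 22. Of these, 2 lay upstream of the gene at 11.3 and 9.66 kb from its 5′ end, 3 lay inside it at 9.45, 15.9 and 23.0 kb, and the last lay 102 kb along, past the 3′ end. A stretch of 78.4 kb without a peak, from 46569073 to 46647472, covered most of the gene, 58.5% of the locus. The widest PPARA peak, 708 bp from 46555098 to 46555805, was also the nearest to the 5′ end, 9.10 kb away. The value for PPARA depended on the flank: with 50 kb on each side its density rose to 67.0 peaks per Mb and 1.18 times that of the chromosome, and without a flank it was 31.9 peaks per Mb, 0.564 of the chromosome.

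PPARG (chromosome 3, 12329000 to 12476000, plus strand) held 20 peaks, 1.82 times the density of chromosome 3. A pair of narrow peaks flanked its 5′ end, 161 bp wide at 0.48 kb upstream (12328437 to 12328597) and 160 bp wide at 1.60 kb inside (12330517 to 12330676). After them came 78.1 kb without a peak, to 12408737. Of the 13 peaks inside the gene, 12 lay past the middle of the span and 1 before it, and 4 more followed within 20 kb of the 3′ end. The PPARG increases were thus concentrated in the distal part of the gene span. RefSeq lists 6 start windows for PPARG, of which 3 matched the length of the span. Whether any other start lies near these peaks was not analysed. They were also narrow, with a median of 261 bp against 316 bp over the whole list. Only 7 of the 20 reached that list median, and 5 of the 20 (25.0%, Wilson interval 11.2 to 46.9%) were under 170 bp wide, against 8.22% of all peaks. The limit of 170 bp was set after seeing the peaks, so this share and its interval cannot show an excess of narrow peaks. When only peaks at or above the median width were counted, PPARG had 37.4 peaks per Mb, 1.26 times its chromosome.

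PPARGC1A encodes a coactivator that raises the activity of the PPARs and of other receptors, and drives gluconeogenesis and mitochondrial gene expression in liver. Its locus (chromosome 4, 23793000 to 23892000, minus strand) held 10 peaks, all inside the gene span, at 1.34 times the density of chromosome 4. They formed 3 groups along the gene. The first, of 3 peaks between 0.73 and 5.54 kb from the 5′ end, held the widest PPARGC1A peak (478 bp, 23889579 to 23890056) and the nearest to the 5′ end (174 bp, 23891185 to 23891358). The second had 4 peaks from 36.8 to 49.2 kb and the third had 3 from 65.7 to 79.0 kb. The 39.8 kb from there to the limit of the locus had none. The RefSeq gene of this name is longer, 681 kb against 99 kb for the span used here, so starts farther upstream were not covered.

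RXRA, the common partner of most of these receptors, had the fewest peaks. The locus (chromosome 9, 137218000 to 137333000, plus strand) held 3 peaks, 0.393 of the density of chromosome 9. The widest, 604 bp from 137205103 to 137205706, lay 12.3 kb before the gene, and the others, 358 and 351 bp wide, lay near the 3′ end at 97.0 and 114 kb. Between them 109 kb, 70.4% of the locus, had no peak. Among autosomal windows of the same length, 155 kb, 5.17% had fewer peaks and 90.8% had more. Among such windows of chromosome 9 alone, 11.9% had fewer and 83.5% had more. The 1 Mb on each side held 35 peaks in all, 17.5 per Mb, so RXRA was 1.11 times as dense as its surroundings. The low value thus belonged to a sparse stretch of chromosome 9 and was not found for RXRA alone. All 3 of its peaks reached the list's median width, and counting such peaks only gave a ratio to the chromosome of 0.798.

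**Figure D2:**
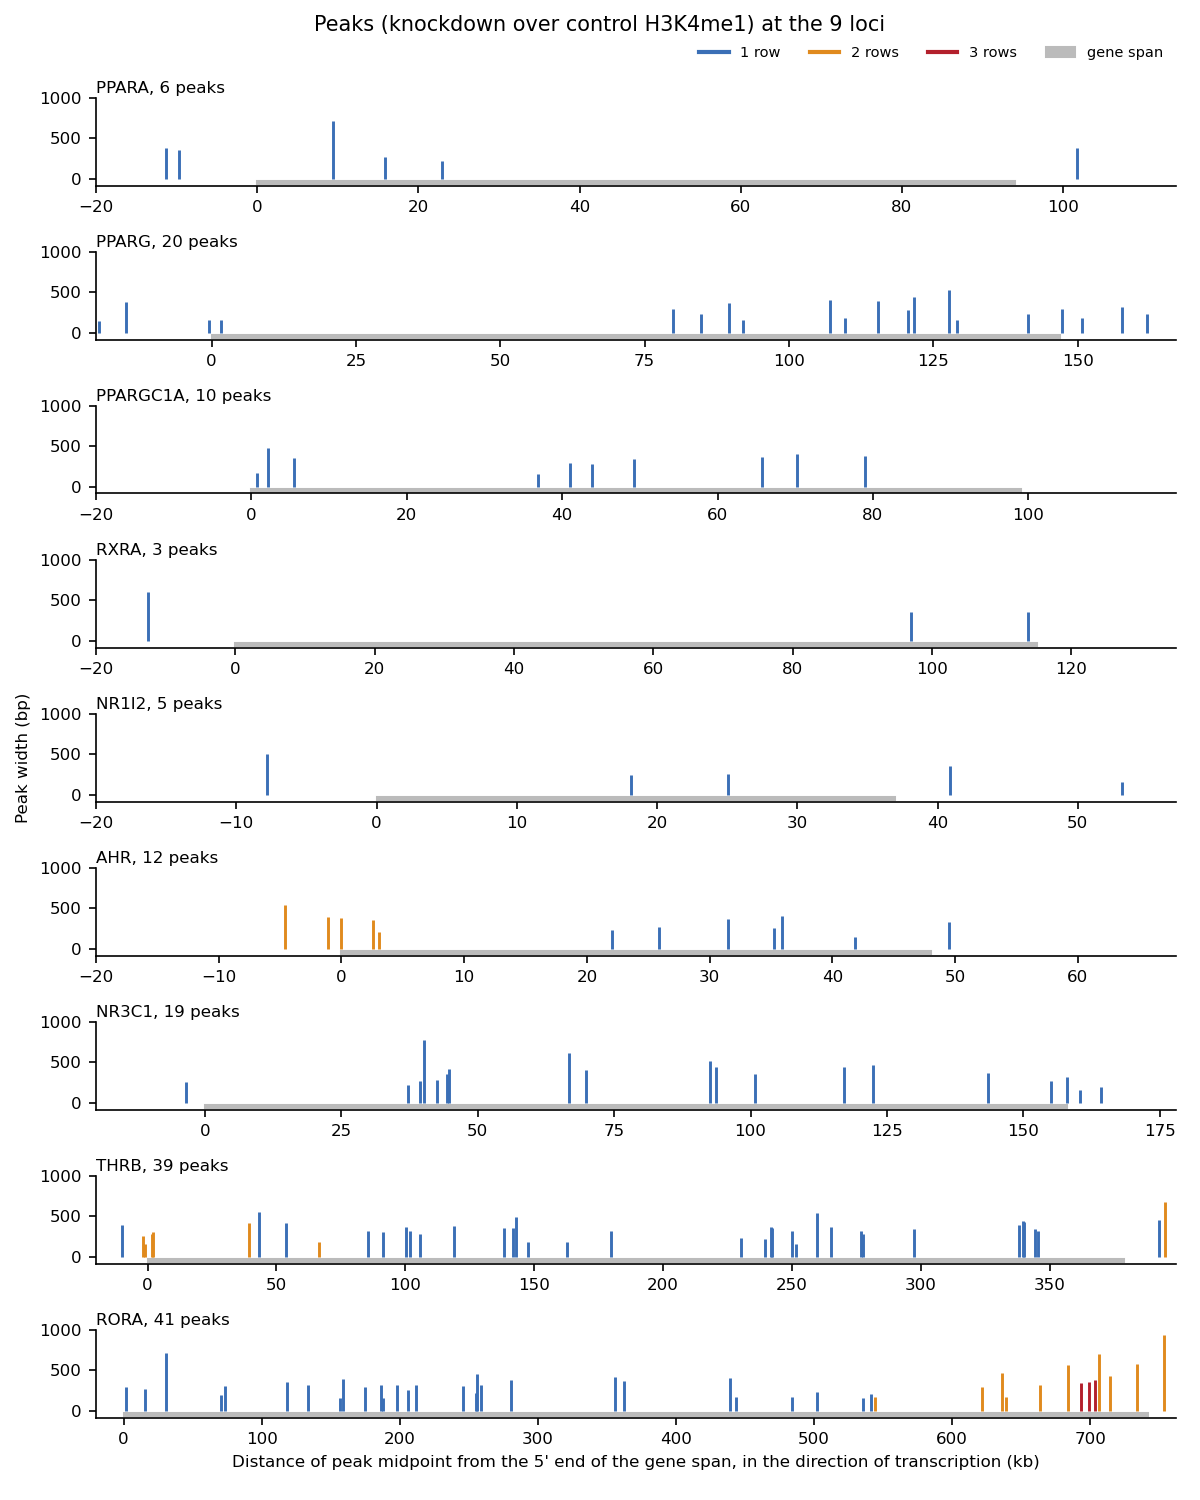
Each peak at its distance from the 5′ end of the gene (horizontal axis, kb, a separate scale for each gene), with its width as height (bp), coloured by the number of rows in which it was listed; grey bars mark gene spans. AHR, THRB and PPARGC1A carried groups of peaks at or near the 5′ end. Several genes, among them PPARG, RXRA and NR3C1, had long empty stretches across it or after it. The repeated RORA peaks all lay toward the 3′ end.

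The xenobiotic sensors NR1I2 and AHR held 5 and 12 peaks, with overlapping intervals of density. NR1I2 encodes PXR, which binds drugs and induces cytochrome P450 genes such as CYP3A4. Its locus (chromosome 3, 119501000 to 119538000, plus strand) held 5 peaks, and its density was 1.10 times that of the chromosome and 0.999 of the 1 Mb on each side. None lay within 5 kb of the 5′ end, and the nearest, which was also the widest (501 bp, 119492962 to 119493462), ended 7.54 kb before it. A pair lay inside the gene at 18.1 and 25.1 kb, and the last 2 lay past its 3′ end, at 40.9 and 53.2 kb, in a flank where the RefSeq table has GSK3B as a close neighbour. No 2 of the NR1I2 peaks were within 5 kb of each other. Without the flanks, 2 peaks remained and the ratio to the chromosome was 0.918.

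AHR encodes the aryl hydrocarbon receptor, which binds dioxin and other planar compounds and induces CYP1A1. Its locus (chromosome 7, 17338000 to 17386000, plus strand) held 12 peaks in 88 kb, 2.55 times the density of chromosome 7 and 1.77 times that of the 1 Mb on each side. Of autosomal windows of this length, 2.46% held more peaks, and of those on chromosome 7, 1.64% did. At its 5′ end lay a run of 5 peaks from 17333126 to 17341193, 8.10 kb in all, each within 5 kb of the next. Their widths, in the order of transcription, were 536, 387, 385, 352 and 203 bp. The third, from 17337744 to 17338128, overlapped the 5′ end itself, the only such case among the 9 genes at the 1 kb precision of the spans. These 5 peaks were each listed in 2 rows and the other 7 AHR peaks in 1. After 18.7 kb without a peak, 6 peaks followed inside the gene, from 22.0 to 41.9 kb, and 1 past its end. AHR remained the densest of the 9 with wider peaks only (79.5 peaks per Mb), with no flank (188) and with a flank of 50 kb (115, against 105 for PPARG). With peaks merged within 1 kb, AHR and PPARG were level, at 102.27 and 101.6 peaks per Mb.

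NR3C1, the glucocorticoid receptor, and THRB, the beta receptor of thyroid hormone that prevails in liver, carry hormonal signals to hepatocytes. The NR3C1 locus (chromosome 5, 142657000 to 142815000, minus strand) held 19 peaks, 1.81 times the density of chromosome 5 and 1.26 times that of its surroundings. A single peak lay 3.53 kb upstream of the outermost 5′ end (252 bp, 142818408 to 142818659), followed by 40.5 kb without a peak. Then came the run with the most peaks in any of the loci, 6 within 7.90 kb, from 142770044 to 142777921. It included the widest NR3C1 peak, 772 bp from 142774440 to 142775211, and its neighbours were 218, 271, 276, 361 and 419 bp wide. NR3C1 has several alternative first exons, and 7 start windows are listed for it in RefSeq; which of them lies near this run was not analysed, because those positions are on another build. NR3C1 peaks had a median width of 361 bp. Counting only peaks at or above the list's median width raised its ratio to the chromosome from 1.81 to 2.44.

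THRB (chromosome 3, 24158000 to 24537000, minus strand) held 39 peaks, 1.58 times the density of chromosome 3. A run of 4 surrounded its 5′ end, from 24534630 to 24539000, with widths of 255, 163, 284 and 312 bp in the order of transcription. The nearest, of 163 bp (24538041 to 24538203), lay 1.04 kb upstream. Farther along, 4 peaks lay between 138 and 148 kb, and 5 lay between 338 and 345 kb in a run of 7.70 kb (24191527 to 24199238). Peaks were spread over the whole gene, with 18 before the middle of the span and 16 past it. The longest stretch without a peak was 50.2 kb, 12.0% of the locus. The widest, of 673 bp (24141886 to 24142558), lay past the 3′ end. Of autosomal windows of this length, 419 kb, 7.83% held more peaks, and of those on chromosome 3, 5.62% did. With wider peaks only, THRB stood at 2.09 times its chromosome.

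RORA encodes an orphan receptor of the circadian clock that also acts on lipid metabolism. It is the longest of the 9 genes (chromosome 15, 60780000 to 61522000, minus strand) and held the most peaks, 41, but at 0.967 of the density of chromosome 15. Its 782 kb were thus filled like an average stretch, and 57.3% of autosomal windows of that length held more peaks. Of the windows on chromosome 15, 52.4% did. A peak of 292 bp (61520135 to 61520426) lay 1.57 kb inside the 5′ end. There were 22 peaks before the middle of the span and 18 past it. No run had more than 3 peaks. The widest peak of all 9 loci, 932 bp from 60767999 to 60768930, lay past the 3′ end of RORA, where ICE2 is a neighbour in the RefSeq table.

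**Figure D3:**
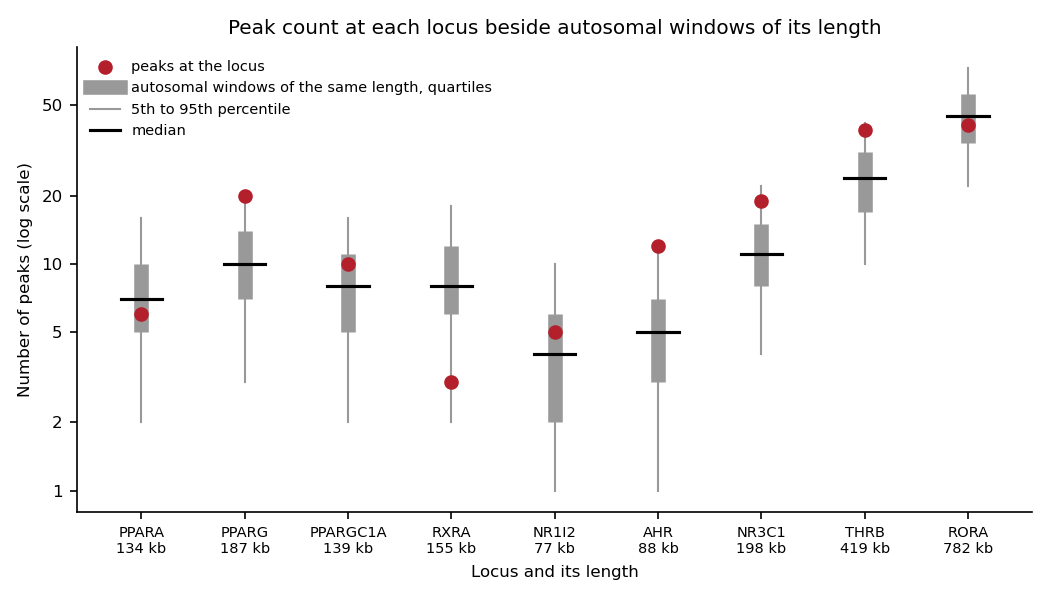
Number of peaks at each locus (red points, log scale) beside autosomal windows of the same length, with their median (black), quartiles (thick grey) and 5th to 95th percentiles (thin grey). AHR lay just above the 95th percentile of its windows, PPARG, NR3C1 and THRB lay between the upper quartile and that percentile, and RXRA lay below the lower quartile.

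At the 5′ ends, 6 of the 9 genes had a peak within 5 kb, 66.7% (Wilson interval 35.4 to 87.9%), against 41.3% of all 10 kb windows. Within 2 kb it was 5 of 9 (PPARG, PPARGC1A, AHR, RORA and THRB), 55.6% (26.7 to 81.1%), against 20.9% of 4 kb windows. Within 10 kb it was 8 of 9, all but RXRA, 88.9% (56.5 to 98.0%), against 62.7% of 20 kb windows. With 9 genes these intervals are wide, and those for 5 and 10 kb include the share of all windows. Within the 9 loci themselves, 26.5% of 4 kb, 49.5% of 10 kb and 73.8% of 20 kb windows held a peak. The lower limit for 2 kb, 26.7%, was thus barely above the share in the loci. The starts of other genes were not counted, so these shares cannot show an excess particular to these 9 genes. AHR with 5 peaks and THRB with 4 held 9 of the 15 peaks within 5 kb. PPARG and PPARGC1A had 2 each, and RORA and NR3C1 had 1 each.

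Inside the gene spans the density was 69.8 peaks per Mb (58.2 to 83.1, 127 peaks). In the 20 kb upstream of the genes it was 77.8 (42.5 to 131, 14 peaks), and it was the same downstream, also with 14 peaks. The increases did not favour the early part of the genes in total, with 63 peaks before the middle of the spans and 64 past it. Single genes differed: PPARG had 1 against 12, PPARA 3 against 0 and RXRA 0 against 2, while PPARGC1A had 7 against 3. At the 20 kb limit of the loci, the outermost peak counted lay 19.5 kb from PPARG, and the nearest left out lay 20.4 kb from THRB and 20.6 kb from PPARG.

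In 5 of the 9 loci a larger share of peaks had a close neighbour than in the whole list. Another peak within 5 kb, inside or outside the locus, was found for 98 of 155, 63.2% (Wilson interval 55.4 to 70.4%), against 52.2% of all peaks. This was the case for 19 of 20 in PPARG, 10 of 12 in AHR, 8 of 10 in PPARGC1A, 14 of 19 in NR3C1 and 27 of 39 in THRB. These were also the 5 loci with the most peaks per Mb, and a higher density by itself brings peaks closer together. Whether peaks clustered beyond their density, in pairs or in runs, was not tested. The other 4 loci were below the share of all peaks, with 18 of 41 in RORA, 2 of 6 in PPARA and none of the 3 in RXRA or the 5 in NR1I2. Runs of 5 or more peaks with gaps of at most 5 kb held 16 of the 155, 10.3% (6.45 to 16.1%), against 6.07% of all peaks. They were the runs of AHR, NR3C1 and THRB described above. With peaks within 1 kb of each other merged, the 9 loci went from 71.1 to 63.8 peaks per Mb. The whole list went from 160601 to 144947 peaks, a fall of similar proportion.

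Peak widths were close to those of the list. The 155 peaks had a median of 324 bp (quartiles 249.5 and 395.5 bp, range 151 to 932 bp), against 316 bp (229 and 396 bp) for all peaks. None reached 1 kb, which allows a share of up to 1.94%, and 0.899% of all peaks were that wide. At or above the list's median width were 89 of the 155, 57.4% (Wilson interval 49.5 to 64.9%), against 50.1% of all. By locus this was 26 of 39 in THRB and 12 of 19 in NR3C1, but 7 of 20 in PPARG and 2 of 5 in NR1I2.

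**Figure D4:**
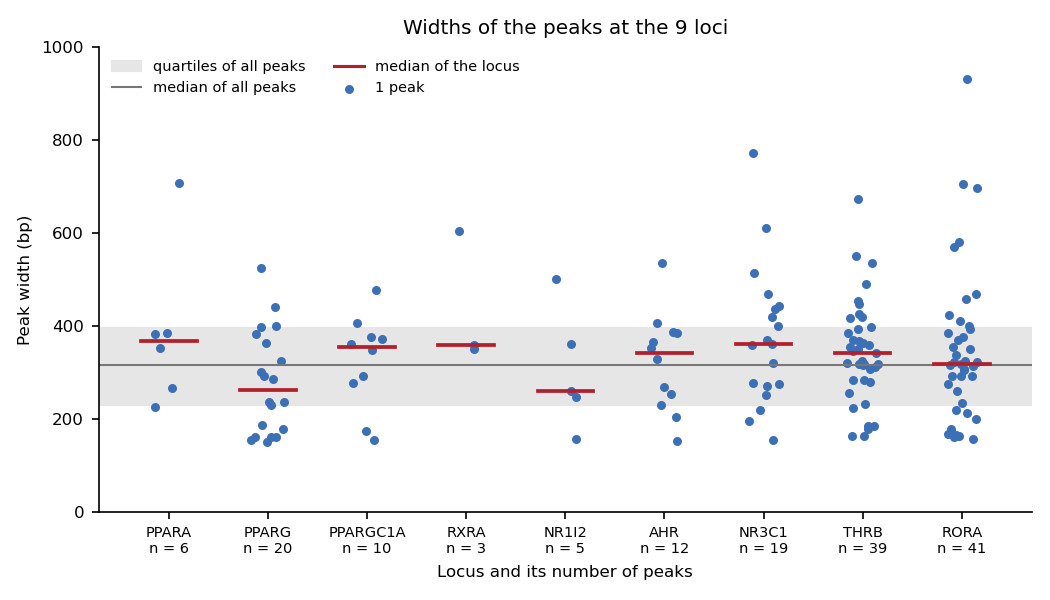
Width in bp of each of the 155 peaks by locus (blue points, spread sideways for visibility), with the median of the locus in red and the median and quartiles of all peaks in grey. PPARG and NR1I2 had the narrowest medians, 261 and 260 bp, and the widest peak, 932 bp, was at RORA.

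In 25 of the 155 peaks the same position was listed in more than 1 row, 16.1% (Wilson interval 11.2 to 22.7%), against 10.7% of all peaks. The interval treats peaks as independent, but repeated rows fell mostly on adjacent peaks, so it understates the spread. All 25 repeated peaks were at AHR, THRB and RORA. In AHR they were the 5 peaks at the 5′ end. In RORA they were the 13 farthest from the 5′ end, from 544 to 754 kb, without exception, and the 28 before them were each listed in 1 row. The only peaks in 3 rows, 1.94% of the 155 against 1.36% of all peaks in 3 or more, were 3 neighbours in RORA, from 60828501 to 60828838, from 60822594 to 60822948 and from 60818541 to 60818915. In THRB they were the 4 around the 5′ end, those at 39.4 and 66.5 kb, and the widest, past the 3′ end. In the RefSeq table THRB overlaps the antisense genes THRB-AS1 and THRB-AS2, RORA overlaps RORA-AS1, RORA-AS2 and RORA-AS4 among 10 genes, and AHR overlaps LOC101927609. PPARG, with 20 peaks in 1 row each, overlaps no other gene there. The other 5 loci had 1 row for each peak although each of these genes overlaps others there: NR3C1 and PPARGC1A 2 each, and PPARA, RXRA and NR1I2 1 each. The part of such genes in the repeated rows was not tested.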

How the data were processed

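H3K4me1 chromatin immunoprecipitation was sequenced from HepG2 cells, 1 library with LSD2 knockdown and 1 control library. The deposited file lists peak positions with no score or other value. Per the file headers, reads were trimmed and freed of duplicates, and peaks were called with MACS with the knockdown as treatment and the control ChIP as background, a fragment length of 128 bp, a p-value cutoff of 1e-05 and an enrichment factor of 32. The submitters' processing notes name BWA and hg19, with no versions. A call against the other ChIP yields increases only and depends on the depth of both libraries, which is not given in the sources used here.

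The 180505 rows were reduced to 160601 distinct peaks, and positions were counted from 1. Gene spans, given to 1 kb, were extended by 20 kb. Strand came from the RefSeq promoter table. Chromosome density was taken from the first to the last peak without peak-free gaps over 1 Mb. Windows tiled each chromosome over the same range. Intervals are exact Poisson for densities and Wilson for shares, at 95%, and treat peaks as independent. A share of 0 is bounded by 3 counts. RefSeq starts were matched to a gene when the length to its far end was within 2 kb of the span.

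Every locus was named, with its widest peak, the peak nearest the 5′ end, peaks in 3 or more rows and the longest empty stretch; other peaks were picked after their values were seen. The members and lists were chosen with earlier results of these data known, and the width limit of 170 bp and the runs were set after seeing the peaks. Related genes such as NR1H4, RXRB and ARNT were not analysed here, since no hg19 annotation was used. Counting was tested on simulated data, with Python 3.11.15, pandas 2.3.3 and scipy 1.17.1.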

Additional observations from a re-analysis of the deposited data

How the results depend on the processing

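The density over the 9 loci was 71.1 peaks per Mb. Counting only peaks at or above the median width gave 40.8, by construction, and counting every deposited row gave 83.98. It stayed inside its interval (60.4 to 83.3) without flanks, with 50 kb flanks, with peaks merged within 1 kb, by midpoints and, chosen after seeing the data, without RORA and THRB (76.7). The median ratio of a locus to its chromosome was 1.34, 1.15 against the 1 Mb on each side and 1.34 by covered bases. Against the 1 Mb on each side, RXRA changed from 0.393 to 1.11 and NR1I2 from 1.10 to 0.999. The ratio of RORA was 1.01 with wider peaks, 1.05 with merged peaks and 1.14 by rows. That of NR1I2 was 0.876 with wider peaks and 0.992 by rows. AHR, PPARG, NR3C1, THRB and PPARGC1A stayed above 1 in every alternative run that included them. The share of windows with a peak was 1.20 times that of the genome at 10 kb, 1.25 at 5 kb and 1.18 at 20 kb. The cause of these differences was not tested. No paired analysis was possible because a single library stands for each condition, and so no leave-one-out could be run. The unknown depth limits every count: a locus with few peaks may be thinly covered. Chromosomes of this cell line can also differ in copy number, which was not measured here.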
